A study of Mus musculus with 6 samples.

Results

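ATF4 binding at genes of protein folding and quality control in the endoplasmic reticulum (ER) was examined in 4 annotated ChIP-seq peak lists from mouse embryonic fibroblasts (MEFs). The genes were 37 members of the ER chaperone and unfolded protein response machinery, and their peaks were those that the authors' annotation assigned to one of these 37 gene names, at any distance from the transcription start site (TSS). Peaks centered within 5 kb of the TSS were set apart from those farther away. Of 17462 peaks in the 4 lists, which together name 8863 genes, 37 peaks belonged to members. They fell on 14 of the 37 genes, and 12 of them, on 6 genes, lay within 5 kb. The share of all genes with a peak in any of the 4 lists is not given here, and shares for single lists follow below.

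The cells were primary MEFs of the 129S6/SvEvTac strain, either Wild-type (WT) or GCN2-/- (GCN2 KO), kept for 24 h in Complete DMEM (+Leu) or in DMEM without Leucine (-Leu). GCN2 is the kinase that senses uncharged tRNA when amino acids run short, and its activity raises the translation of the transcription factor ATF4. All 4 ChIPs used the same ATF4 antibody, and each condition was 1 library from chromatin pooled over 2 experiments, so differences between conditions had no replicates behind them and none was tested. The lists hold no expression values, so neither the cell type nor the loss of GCN2 could be checked in them, and leucine-fed input DNA of the same genotype served as control for the -Leu lists too.

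The unfolded protein response (UPR) is the set of signals by which cells react to unfolded proteins in the ER. Its sensors are IRE1 (encoded by Ern1), PERK and ATF6, and PERK shares with GCN2 the step that raises ATF4. Proteins that fail to fold are recognized by lectins and mannosidases, passed through the membrane by the SEL1L-HRD1 complex and degraded by the proteasome, a route called ER-associated degradation (ERAD). ATF4 binds composite CEBP-ATF sites such as TGATGCAA as a dimer with another leucine zipper protein, whereas ATF6 and XBP1 act on ER stress response elements (ERSE) in the promoters of chaperone genes.

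The sequences under the strongest member peaks are shown first, because all 5 WT -Leu member peaks with a score of 100 or more held the CEBP-ATF site or a close relative of it (TGATGNAA) within their 301 bases. So did 404 of 623 such peaks of this list (64.8%), members and other genes together. All are reference sequence of mm10 (GRCm38) written 5′ to 3′, and the cells are of another strain than the reference. In the Herpud1 promoter, chr8:94386179-94386428 on the plus strand and ending at the base before the RefSeq start (GRCm38.p6), the capitals mark the CEBP-ATF site, read on the opposite strand, and farther on an element of the second ERSE type (ERSE-II: ATTGG, any base, CCACG).
Herpud1 promoter: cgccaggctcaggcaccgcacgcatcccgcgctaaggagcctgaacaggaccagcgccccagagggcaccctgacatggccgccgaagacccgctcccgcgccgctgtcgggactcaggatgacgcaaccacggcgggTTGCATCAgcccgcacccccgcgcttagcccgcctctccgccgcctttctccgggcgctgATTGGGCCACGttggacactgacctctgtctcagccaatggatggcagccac
The other 3 windows of 101 bases are centered on the WT -Leu peaks in introns. They cover chr8:94390657-94390757 (plus strand), chr12:91845557-91845657 (minus strand, the strand of Sel1l) and chr6:108843860-108843960 (plus strand), and the capitals mark TGATGCAA on either strand or TGATGTAA.
Herpud1 intron: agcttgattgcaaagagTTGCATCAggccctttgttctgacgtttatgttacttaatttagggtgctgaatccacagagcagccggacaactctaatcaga
Sel1l intron: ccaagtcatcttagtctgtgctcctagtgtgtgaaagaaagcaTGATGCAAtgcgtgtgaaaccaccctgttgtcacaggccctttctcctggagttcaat
Edem1 intron: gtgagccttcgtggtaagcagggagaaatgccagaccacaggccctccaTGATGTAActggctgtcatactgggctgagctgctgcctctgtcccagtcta
For Hspa5, the 151 bases from the center to the downstream edge of the upstream peak are chr2:34770150-34770300, with TGATGCAA in capitals at both of its places. The Hspa5 promoter, chr2:34771840-34772089 up to the RefSeq start, is shown because the peak did not lie there, and its capitals mark an ERSE (CCAAT, 9 bases of any kind, CCACG).
Hspa5 upstream: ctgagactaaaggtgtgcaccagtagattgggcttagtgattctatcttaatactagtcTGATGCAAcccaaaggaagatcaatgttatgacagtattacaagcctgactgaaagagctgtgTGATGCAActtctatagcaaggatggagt
Hspa5 promoter: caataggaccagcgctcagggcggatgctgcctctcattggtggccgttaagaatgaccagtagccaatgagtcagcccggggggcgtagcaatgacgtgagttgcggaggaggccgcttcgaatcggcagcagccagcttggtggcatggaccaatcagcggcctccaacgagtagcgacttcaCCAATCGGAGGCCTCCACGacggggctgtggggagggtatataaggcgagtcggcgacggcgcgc

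In WT cells, 2 of the 37 genes carried a peak within 5 kb with leucine (Herpud1 and Bhlha15) and 5 without it (with Sel1l, Hspa5 and Wfs1 added). In GCN2 KO cells, 3 genes had one with leucine (Herpud1, Syvn1 and Bhlha15) and none without it. As shares these were 5.41% (95% Wilson interval 1.50 to 17.7) in WT +Leu, 13.5% (5.91 to 28.0) in WT -Leu, 8.11% (2.80 to 21.3) in GCN2 KO +Leu and 0% (0 to 9.41) in GCN2 KO -Leu. Of 21896 protein-coding genes, 3.03%, 4.40%, 2.27% and 1.61% had such a peak in the same 4 lists. The background share lay below the interval of the members in WT -Leu and in GCN2 KO +Leu and inside it in the other lists. The intervals cover counting error alone and test nothing, as the 37 genes were chosen with earlier results of these data known. In GCN2 KO +Leu the 3 genes rest on scores of 20 to 28, below the median of that list (29). A score of 30 or more left 0 of them. Members with a peak at any distance numbered 5, 13, 4 and 5, or 13.5% (5.91 to 28.0), 35.1% (21.8 to 51.2), 10.8% (4.29 to 24.7) and 13.5% (5.91 to 28.0), beside 14.6%, 18.3%, 11.1% and 8.56% of protein-coding genes. The counts of single lists cannot be told apart from differences in sequencing depth, which the lists do not give.

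**Figure D1:**
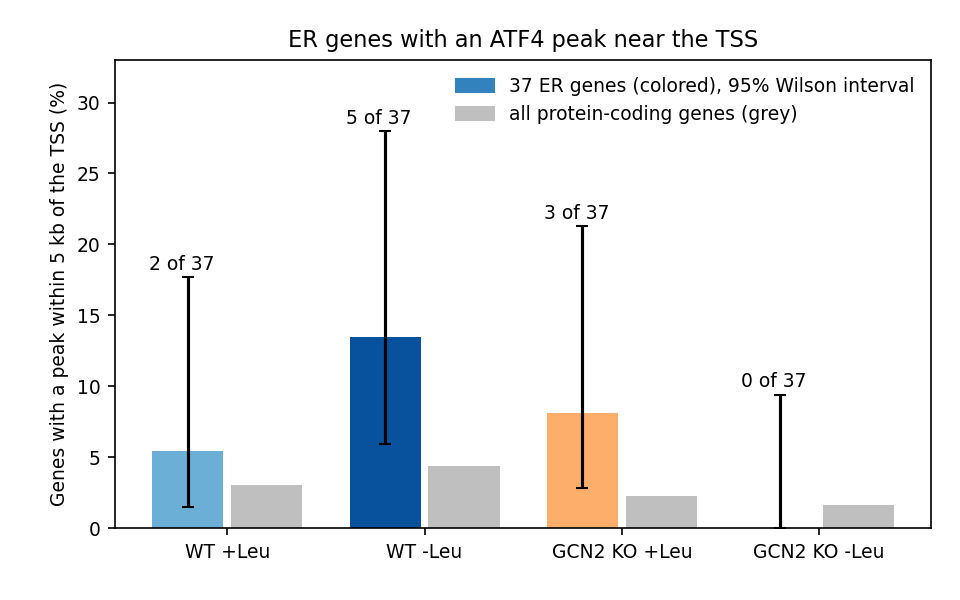
Share of genes with an ATF4 peak within 5 kb of the TSS (y axis, percent) in each of the 4 lists (x axis), for the 37 ER genes (colored bars, with 95% Wilson intervals as lines and the number of genes above) and for all protein-coding genes (grey bars). The ER genes reach 13.5% in WT -Leu against 4.40% of all protein-coding genes, and 0 of 37 in GCN2 KO -Leu.

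The strongest member peaks were those of the ERAD genes Herpud1, Edem1 and Sel1l. The score deposited with each peak starts at 13 in these lists. Its scale is not given in the sources used here, and they state no normalization between libraries, so it ranks peaks within a list. In WT +Leu, 1 of the 8 member peaks scored 100 or more (12.5%, 2.24 to 47.1), beside 1.86% of all peaks of that list. In WT -Leu, 5 of 19 did (26.3%, 11.8 to 48.8), beside 9.82% of all peaks. None of the 5 member peaks in GCN2 KO +Leu and none of the 5 in GCN2 KO -Leu reached it, where 0.897% and 0.487% of all peaks did. Of these 6 strong peaks, 5 were at ERAD genes (Herpud1 with 3, Edem1 and Sel1l) and 1 at the chaperone gene Hspa5. Of all 37 member peaks, 16 were at ERAD genes. The highest score among the remaining ERAD members was 45, at Edem3.

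**Figure D2:**
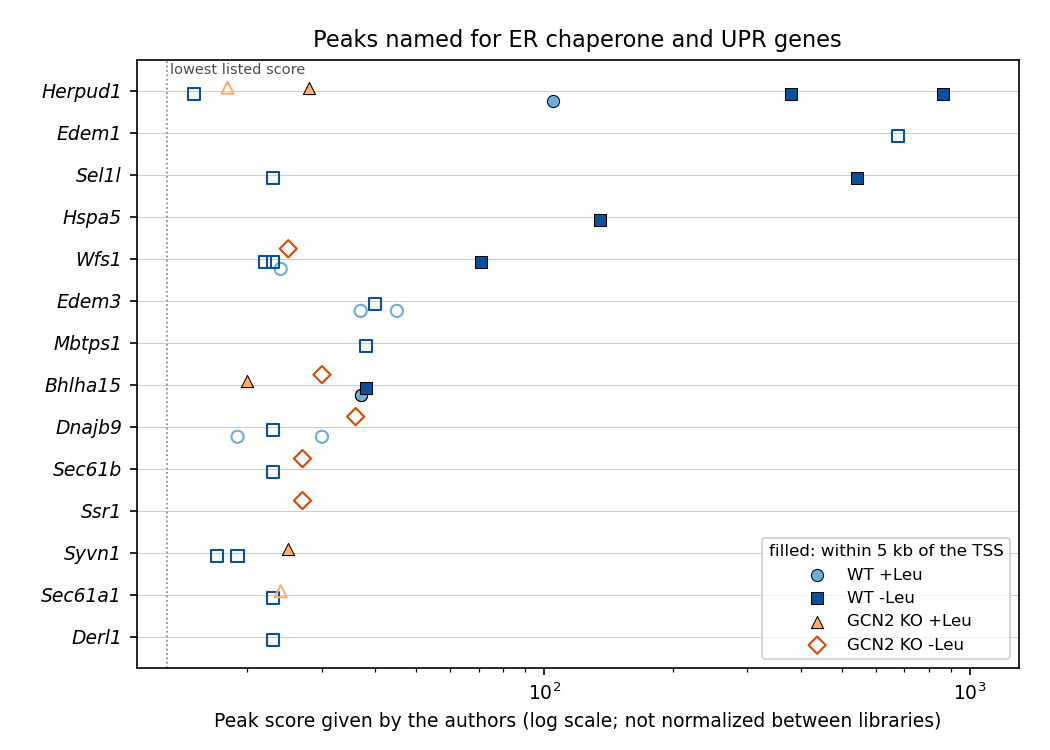
Score of each of the 37 member peaks (x axis, log scale, no unit) by gene (y axis, ordered by the highest score), with a symbol for each list. Filled symbols are within 5 kb of the TSS, open ones farther away, and the dotted line is the lowest listed score of 13. The symbols above 100 are those of Herpud1, Edem1, Sel1l and Hspa5, and apart from the Herpud1 peak of 105 they are WT -Leu.

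Herpud1 had 6 peaks in the lists, more than any other member, and the highest score among them. It encodes HERP, an ER membrane protein that helps organize the ERAD complex. Its promoter carried a peak in 3 lists. In WT +Leu this peak (chr8:94386244-94386544) scored 105, ranked 75 of 4850 and was centered 106 bp upstream of the TSS. In WT -Leu it (chr8:94386171-94386471) scored 379, ranked 137 of 6374 and lay 179 bp upstream. In GCN2 KO +Leu the promoter peak (chr8:94386161-94386461) scored 28, ranked 1989 of 3566 and lay 189 bp upstream. The promoter was thus near the top of both WT lists, at the 98.4th and 97.9th percentile of the scores, and at the 42.8th in GCN2 KO +Leu. GCN2 KO -Leu had no peak nearer to any annotated Herpud1 start than 171 kb.

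A further Herpud1 peak was listed in WT -Leu alone, in intron 3 of 7 (chr8:94390557-94390857), 4207 bp downstream of the TSS of the list. It scored 866 and ranked 38 of 6374, above the promoter peak. Its center was 83 bp from the start of a shorter Herpud1 transcript in the GENCODE annotation. The remaining Herpud1 peaks were weak, with a score of 18 in GCN2 KO +Leu at 19.0 kb upstream, inside an LTR repeat, and a score of 15 in WT -Leu at 22.6 kb downstream.

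Sel1l encodes the adaptor that links substrate recognition to the ubiquitin ligase HRD1. Its peak within 5 kb was in WT -Leu (chr12:91845457-91845757), in intron 1 of 20 and 3550 bp from the TSS, with a score of 542 that ranked 77 of 6374. The other 3 lists held no Sel1l peak, and WT -Leu held 1 more, 188 kb upstream with a score of 23.

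Edem1, a mannosidase-like protein that marks misfolded glycoproteins for removal, had a single peak in the 4 lists. It was in WT -Leu, in intron 4 of 11 (chr6:108843760-108844060), with a score of 677 at rank 54 of 6374. By the list it lay 15.3 kb from the TSS and so outside the 5 kb limit. Another annotated Edem1 start was 4.72 kb away. Of the 25 member peaks beyond 5 kb this was the one with a score of 50 or more.

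**Figure D3:**
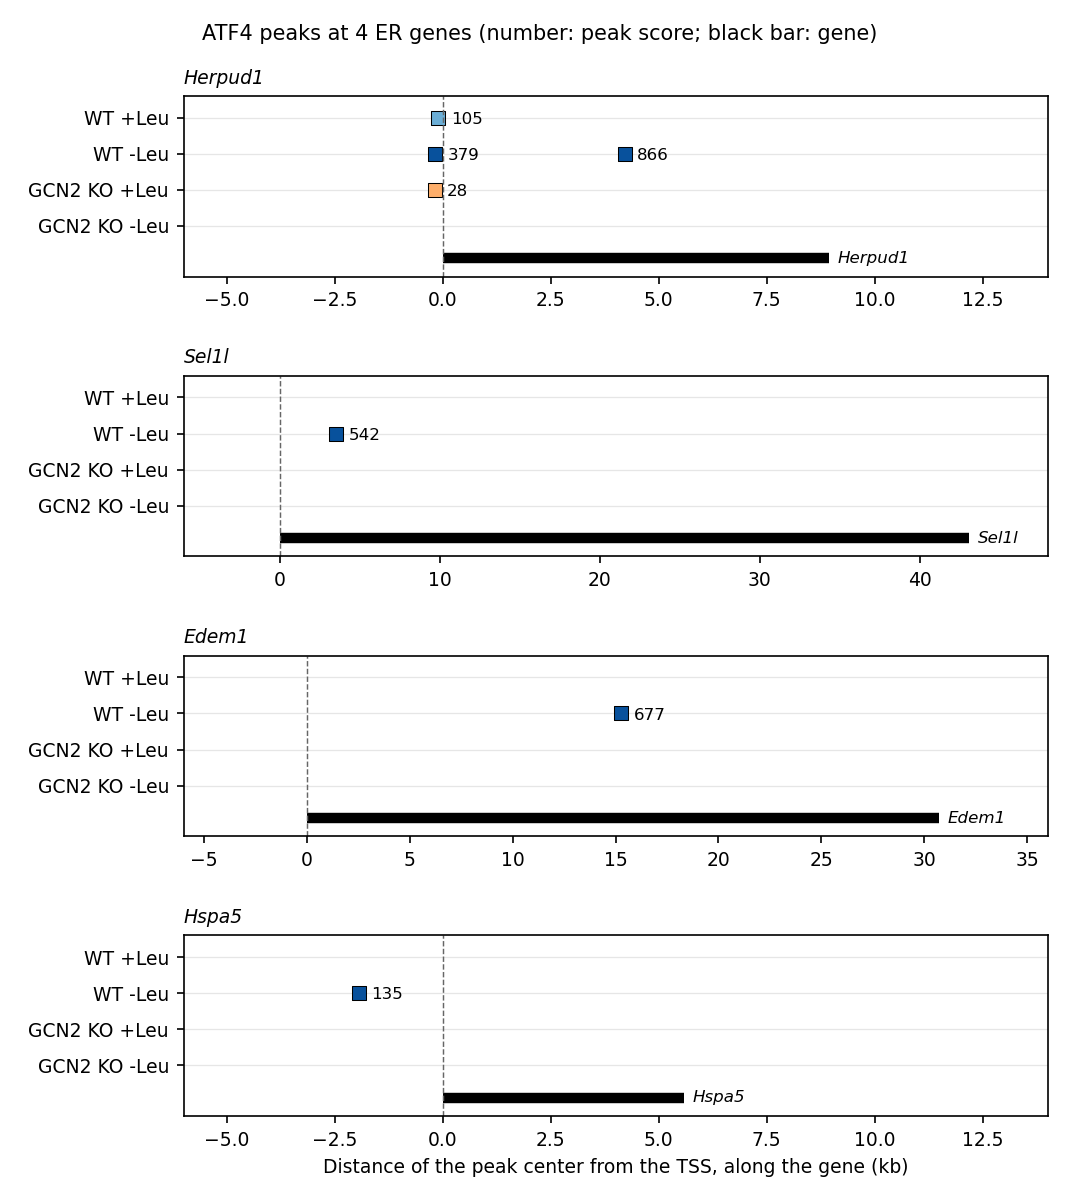
Peaks at Herpud1, Sel1l, Edem1 and Hspa5 by distance of the peak center from the TSS (x axis, kb along the gene) in each list (rows of each panel), with the score printed beside each peak and the gene drawn as a black bar. Herpud1 has a promoter peak in 3 lists and an intronic peak of 866 in WT -Leu, whereas the peaks of Sel1l, Edem1 and Hspa5 appear in WT -Leu alone.

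Weaker peaks were assigned to 3 more ERAD genes. Syvn1 encodes HRD1 itself, and its peak within 5 kb was in GCN2 KO +Leu, in exon 6 of 16 (chr19:6049028-6049328), 2033 bp from the TSS with a score of 25. In WT -Leu, Syvn1 had peaks at 8.39 and 8.15 kb upstream scoring 17 and 19. A peak of score 42 inside its intron 9 of 15 was assigned by the list to Mir6988. It lay 3.19 kb from the nearest annotated Syvn1 start, which is not the start used for the 2 upstream distances. Edem3, a mannosidase of the same family as Edem1, had peaks of 45 and 37 in WT +Leu and of 40 in WT -Leu, all 32.3 kb or more from its TSS. Derl1, a membrane protein of the export channel, had a peak of 23 in WT -Leu, 80.5 kb away inside another gene, Zhx2. By list, peaks were found at 2, 6, 2 and 0 of the 10 ERAD members at any distance, in the order WT with and without leucine and then GCN2 KO with and without it, and at 1, 2, 2 and 0 within 5 kb. Edem2, Herpud2, Derl2 and Derl3 had no peak in any list.

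Among the 10 chaperones and their J-protein partners, Hspa5 was the one with a peak within 5 kb. Hspa5 encodes BiP, the Hsp70 of the ER lumen that also restrains the UPR sensors. The peak was in WT -Leu (chr2:34770000-34770300), 1940 bp upstream of the TSS, and scored 135 at rank 458 of 6374. The list annotates its center as intergenic and inside a SINE repeat of the B1 type (B1_Mur2). The remaining lists held no Hspa5 peak at any distance. Dnajb9, a J-protein that works with BiP, had peaks of 30 and 19 in WT +Leu, 23 in WT -Leu and 36 in GCN2 KO -Leu. These lay 10.8 to 1000 kb from its TSS, with 3 of the 4 inside LTR repeats. The other 8 genes of this group (Hsp90b1, Hyou1, Dnajb11, Dnajc3, Dnajc10, Sdf2l1, Manf and Creld2) had no peak in any list.

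No peak in any list was assigned to the lectin chaperones Calr and Canx, which hold glycoproteins while they fold, or to the 6 genes of disulfide formation, Pdia3, Pdia4, Pdia6, P4hb, Ero1l and Ero1lb. Together with the sensor gene Ern1, the protease gene Mbtps2 and the translocon gene Sec62, 23 of the 37 members were without a peak. In single lists, 8.56% (GCN2 KO -Leu) to 18.3% (WT -Leu) of protein-coding genes had a peak at any distance. The share with a peak in any list is not given here, so the count of 23 does not set these steps apart from other genes. None of these 23 had a peak of any name within 5 kb of any of its annotated starts. The nearest peak was at a median of 147 kb in WT +Leu, 139 kb in WT -Leu, 188 kb in GCN2 KO +Leu and 286 kb in GCN2 KO -Leu. These lists hold 4850, 6374, 3566 and 2672 peaks, so the medians were larger in the shorter lists. Distances for all genes are not given here, and the medians do not compare the conditions. The closest approach was at Ero1l, which encodes the oxidase that recharges PDI. A peak assigned to its neighbor Psmc6 lay 6.86 kb from the Ero1l start in both WT lists and scored 84 in WT +Leu and 347 in WT -Leu.

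The translocon, through which new proteins enter the ER, was represented by Sec61a1, Sec61b, Sec62 and Ssr1. It had peaks only beyond 5 kb. Sec61a1 had a peak of 23 in WT -Leu and of 24 in GCN2 KO +Leu, at different sites. Sec61b had a peak 239 kb from its TSS in both -Leu lists, with scores of 23 in WT and 27 in GCN2 KO and centers 38 bp apart. Ssr1, a subunit of the complex that assists translocation, had a peak of 27 at 23.1 kb in GCN2 KO -Leu. Mbtps1, the protease that makes the first cut in ATF6, had 1 peak, in WT -Leu in intron 7 of 23 (chr8:119541193-119541493), 17.4 kb from the TSS of the list and 2.38 kb from another annotated start, with a score of 38. Neither Ern1 nor Mbtps2, the protease of the next cut, had any.

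Wfs1 and Bhlha15 are UPR targets outside these steps. Wfs1 encodes wolframin, an ER membrane protein, and had a WT -Leu peak of score 71 in its first exon (chr5:36988731-36989031), in the 5′ UTR 101 bp from the TSS, at rank 855 of 6374. Its other 4 peaks scored 22 to 25 and were 7.88 to 52.8 kb away, 2 in WT -Leu and 1 each in WT +Leu and GCN2 KO -Leu. Bhlha15 encodes the transcription factor MIST1 of secretory cells and was the member with a peak in all 4 lists. In WT +Leu it had 2 peaks of score 37, at 1.70 kb upstream (chr5:144188436-144188736) and 2.49 kb downstream of the TSS in the 3′ UTR (chr5:144192629-144192929). In WT -Leu it had a peak of 38 in the 3′ UTR (chr5:144192581-144192881), 48 bp from the WT +Leu peak. In GCN2 KO +Leu the Bhlha15 peak within 5 kb (chr5:144185662-144185962) scored 20 at 4.47 kb upstream, in the 3′ UTR of the neighboring gene Lmtk2, and in GCN2 KO -Leu a peak of 30 lay 13.3 kb away. The scores of these Bhlha15 peaks ranged from the 8.44th percentile in GCN2 KO +Leu to the 77.4th in WT +Leu.

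A partner in another list, with centers 300 bp or less apart, was found for 7 of the 37 member peaks, beside 6.37% of all 17462 peaks. These 7 belonged to Herpud1 (the promoter in 3 lists), Bhlha15 (both WT lists) and Sec61b (both -Leu lists). The other 30 peaks were listed once. Between the WT lists, 2 of the 37 genes (Herpud1 and Bhlha15) had a peak within 5 kb in both, beside 0.621% of protein-coding genes. They were 2 of the 2 genes of WT +Leu and 2 of the 5 of WT -Leu. Among protein-coding genes, 136 had a peak in both, of 664 with one in WT +Leu and 963 in WT -Leu. The Herpud1 promoter score was 3.61 times as high in WT -Leu as in WT +Leu, and that of Bhlha15 1.03 times, but by percentile within their own lists both were lower in WT -Leu (98.4 and 97.9 for the Herpud1 promoter, 77.4 and 67.0 for Bhlha15). With the strongest Herpud1 peak within 5 kb in each list the ratio was 8.25, between sites 4313 bp apart. Between the +Leu lists, Herpud1 and Bhlha15 also had peaks within 5 kb in both genotypes, beside 0.320% of protein-coding genes, at a common site for Herpud1 alone (105 in WT and 28 in GCN2 KO). The GCN2 KO lists shared no member within 5 kb, and 0.178% of protein-coding genes had a peak in both.

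By rank, most member peaks were ordinary for their list. Their median score was 37 in WT +Leu against 30 for all peaks, 23 in WT -Leu against 30, 24 in GCN2 KO +Leu against 29 and 27 in GCN2 KO -Leu against 30. Of the 37 peaks, 20 were below the 50th percentile of their list. The range was 19 to 105 in WT +Leu, 15 to 866 in WT -Leu, 18 to 28 in GCN2 KO +Leu and 25 to 36 in GCN2 KO -Leu. The WT -Leu members therefore split into 4 strong peaks from 379 to 866 at Herpud1, Edem1 and Sel1l, the Hspa5 and Wfs1 peaks at 135 and 71, and 13 peaks of 40 or less. Of the 25 peaks beyond 5 kb, 15 were intergenic, 5 were inside another gene and 5 inside the member's own gene. Repeats held 7 of the 37 peaks. The shares of all peaks that were intergenic, inside genes or in repeats are not given here, so these counts describe the member peaks alone.

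**Figure D4:**
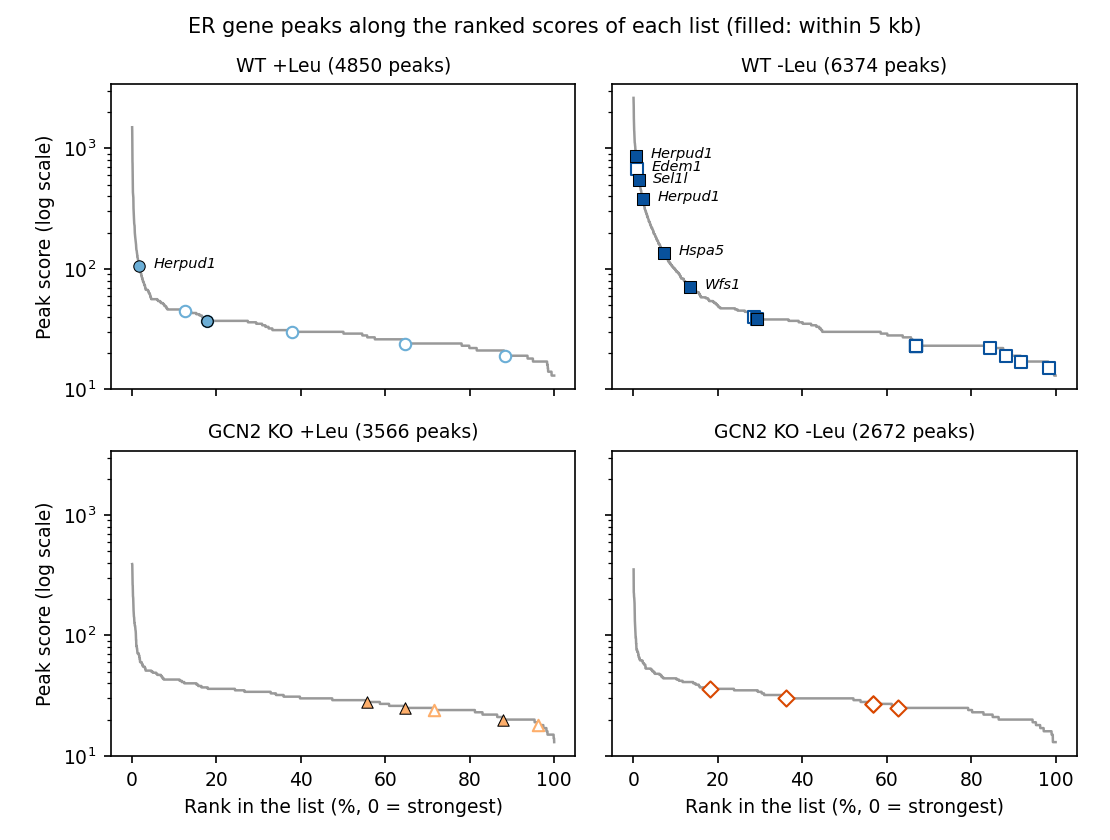
Peaks of each list sorted by score (grey line), with rank as percent of the list on the x axis (0 is the strongest) and score on a log y axis, in 4 panels for the 4 lists. Symbols are member peaks, filled within 5 kb of the TSS and open beyond. In WT -Leu the peaks of Herpud1, Edem1 and Sel1l lie at the strongest end, and in both GCN2 KO lists no member reaches a score above 36.

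The CEBP-ATF site, as TGATGCAA in either orientation, was looked for in the 50 bp to each side of the peak center. In WT -Leu it was present in 3 of the 19 member peaks (15.8%, 5.52 to 37.6), beside 6.95% of all peaks of the list. They were the Herpud1 promoter and intron peaks and the Sel1l intron peak, and the distant peaks of Herpud1 (score 15) and Sel1l (score 23) held none. In GCN2 KO +Leu it was present in 1 of 5 (20.0%, 3.62 to 62.4), the Herpud1 promoter peak, beside 1.07% of all peaks. No member peak held it among 8 in WT +Leu (upper limit 32.4%) or among 5 in GCN2 KO -Leu (upper limit 43.4%), where 2.71% and 1.09% of all peaks did. Of the 5 WT -Leu member peaks with a score of 100 or more, 3 held it, against 237 of 623 such peaks on assembled chromosomes (38.0%).

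In the Herpud1 promoter the site spans chr8:94386317-94386324 on the minus strand. It lay at the center of the WT -Leu peak (0 bp), 10 bp from that of GCN2 KO +Leu and 73 bp from that of WT +Leu, outside the 50 bp limit. The ERSE-II, chr8:94386377-94386387, was nearest to the WT +Leu peak, at 12 bp from its center, with WT -Leu at 61 bp and GCN2 KO +Leu at 71 bp. The intronic Herpud1 site, chr8:94390674-94390681 on the minus strand, was 29 bp from the peak center, and the Sel1l site, chr12:91845607-91845614 on the minus strand, 4 bp. Edem1 held TGATGTAA, chr6:108843909-108843916 on the plus strand and 3 bp from the center, which counts only when any base is allowed in place of the C (TGATGNAA). The Hspa5 peak held TGATGCAA at chr2:34770209-34770216 and chr2:34770272-34770279, 63 and 126 bp from the center and thus beyond 50 bp. The remaining member peaks contained none of the searched motifs in their 301 bases.

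Promoters of the members were then searched for motifs of stress-responsive factors in the RefSeq table (GRCm38.p6), from 250 bases before to 50 bases after the start. It held 33 of the 37 members and 27025 genes in all. TGATGCAA was in 1 member promoter, that of Herpud1 (3.03%), and in 1.03% of all promoters. With TGATGNAA the member count was again 1, against 4.51%. The cyclic AMP response element (CRE, TGACGTCA) was in none, against 2.03%, and the unfolded protein response element (UPRE, TGACGTG followed by A or G) in 1, that of Hspa5, against 1.22%. The ERSE was in 10 member promoters (30.3%), those of Calr, Canx, Creld2, Derl3, Dnajc3, Ero1lb, Hsp90b1, Hspa5, Pdia6 and Syvn1, against 37 of all 27025 (0.137%). The ERSE-II was in 2, Dnajb11 and Herpud1 (6.06%), against 0.0444%. The members were chosen as chaperone and UPR genes, whose promoters ERSE are known from, so the choice of genes favored this excess. All motifs were searched on both strands, the 37 and 12 genes of the background include the members, every TGATGCAA is also a TGATGNAA, and the UPRE and ERSE can share bases.

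ERSE elements and ATF4 peaks were then set side by side. Of the 12 members with an ERSE or ERSE-II in the promoter, 3 (25.0%; Herpud1, Hspa5 and Syvn1) had a peak within 5 kb in any list, beside 3 of the 21 other members in the table (14.3%; Sel1l, Wfs1 and Bhlha15). Each share rests on 3 genes and was not tested, and the share of all genes with a peak in any list is not given here. Syvn1 counts through 1 GCN2 KO +Leu peak, with a score of 25. Of the 3 with both, only Herpud1 had a member peak that covered the element. Hspa5 has its ERSE at -65 to -47 from the RefSeq start, shown above, while its peak was 1.94 kb upstream. A match is a description of the letters and was not tested for binding.

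**Figure D5:**
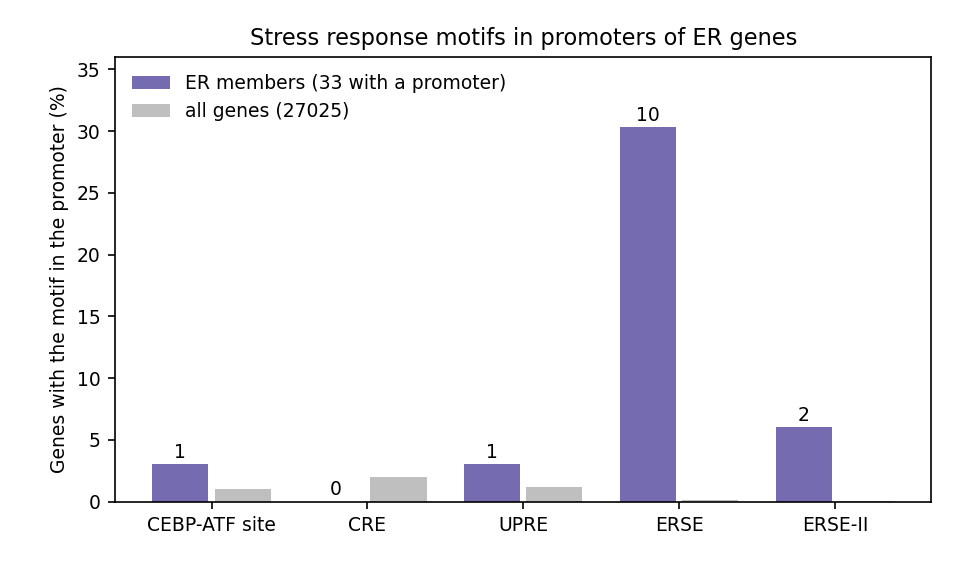
Share of promoters (y axis, percent; 250 bases before to 50 after the RefSeq start) with each of 5 motifs (x axis) among the 33 members in the table (purple, number above) and all 27025 genes (grey). The ERSE is in 10 of 33 member promoters (30.3%) and in 0.137% of all promoters, whereas the CEBP-ATF site is in 1 of 33. The members were chosen as chaperone and UPR genes, whose promoters ERSE are known from.

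The same steps were looked at in 87 other genes of the pathway. Within 5 kb, peaks lay at 6 of these in WT +Leu (6.90%, 3.20 to 14.2), 8 in WT -Leu (9.20%, 4.73 to 17.1), 3 in GCN2 KO +Leu (3.45%, 1.18 to 9.65) and 3 in GCN2 KO -Leu (3.45%), to be read against the background shares given for the members. The genes that feed back on phosphorylated eIF2alpha or on ATF4, Ppp1r15a, Ppp1r15b and Trib3, had such a peak for 2, 3, 2 and 1 of 3. Of 11 sensors and transcription factors it was 1, 3, 1 and 1. Further ERAD genes had 1, 1, 0 and 0 of 17, with scores of 36 in WT +Leu and 27 in WT -Leu. Disulfide genes had 2, 1, 0 and 0 of 13, with scores of 150 and 30 in WT +Leu and 42 in WT -Leu. The 150 was a promoter peak of Txndc12, at rank 47 of 4850 and above the highest member score of that list (105). Genes of N-glycan processing had 0, 0, 0 and 1 of 15, with a score of 30 in GCN2 KO -Leu. Of 13 chaperone cofactors and 15 translocon genes, none had a peak within 5 kb in any list. In single lists, 1.61% (GCN2 KO -Leu) to 4.40% (WT -Leu) of protein-coding genes had one, and the share over any list is not given here. With so few genes, these absences do not set the groups apart from other genes. The 3 highest scores were in WT -Leu, 1129 for Ppp1r15a, which directs the phosphatase to eIF2alpha, 736 for Ddit3, the transcription factor CHOP, and 540 for the pseudokinase gene Trib3. Ddit3 scored 173 in WT +Leu and 40 in GCN2 KO +Leu and Trib3 101 and 58, and neither had a peak within 5 kb in GCN2 KO -Leu. Ppp1r15a had none in the other 3 lists. Ppp1r15b, the constitutive partner of the same phosphatase, had a promoter peak in each list, scoring 144 and 372 in WT and 140 and 66 in GCN2 KO, with and without leucine. It was named after its values were seen.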

How the data were processed

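ATF4 ChIP-seq was performed by the authors on primary MEFs in 4 conditions (WT and GCN2 KO, each with and without leucine), 1 library per condition. The 2 input libraries were not analysed here. Per the labels and the study's methods, reads were trimmed with fastx, aligned to mm10 with BWA 0.7.12, and peaks were called with MACS2 2.1.0 at a false discovery rate of 0.05 and annotated as summit ±150 bp with HOMER 4.7. The authors deposited for each peak its score, whose scale is not given in the sources used here, its position, how far in bp it is from a TSS, and its GC content as a fraction.

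Members were matched by gene name, and sites in a pair of lists were counted as common with centers 300 bp or less apart. The background was all protein-coding genes of the RefSeq gene table, matched by Entrez number. The deposited GC fraction equalled the value computed from GRCm38 for each peak on assembled chromosomes (4839, 6362, 3549 and 2658). Further starts came from the GENCODE annotation and promoters from RefSeq. Tools were samtools 1.23.1, matplotlib 3.10.9, pysam 0.24.0, scipy 1.17.1, pandas 2.3.3 and numpy 2.4.6 under Python 3.11.15. Peak matching and the motif search were first tested on simulated data.

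The 37 members, the 87 other pathway genes and the limits were chosen with earlier results of these data known. Members with a peak within 5 kb are given in full, those with peaks only farther away by range with the 3 highest scores named, and of the other pathway genes the 3 highest scores are named. Ppp1r15b, Txndc12, Derl1, Dnajb9, the translocon genes and the peaks of neighboring genes were described after their values were seen. Depth is not in the lists, which leaves the error of a score unknown, intervals cover counting error only, and no test between conditions was made. The alternatives were other TSS windows (1 and 10 kb, any distance), a score of 30 or more, assembled chromosomes, the 2672 strongest peaks of each list, GENCODE starts, other distances between centers (100 and 1000 bp), a motif window of 150 bp, any base at motif position 6, the peak nearest to the TSS and percentile ranks.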

Additional observations from a re-analysis of the deposited data

Results flagged for a closer look

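The number of members with a peak within 5 kb of the TSS moved in opposite directions in the genotypes, by 3 (from 2 to 5) in WT and by -3 (from 3 to 0) in GCN2 KO, each -Leu minus +Leu. All protein-coding genes moved the same way, from 3.03% to 4.40% in WT and from 2.27% to 1.61% in GCN2 KO. The difference between the genotypes was not tested, since each condition had 1 library. In GCN2 KO +Leu the 3 genes were Herpud1, Syvn1 and Bhlha15, with scores of 28, 25 and 20, all below the median of that list (29).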

How the results depend on the processing

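No paired analysis was possible because each condition had 1 library, and for the same reason no replicate could be left out. Of 75 values recomputed under an alternative, 55 counted as the same, 19 as moved and 1 as reversed. The same did not mean equal. A count could shift moderately, as from 8 to 6 member peaks in WT +Leu with a score of 30 or more. A motif share had only to stay inside the interval of its main value, as from 15.8% to 33.3% in WT -Leu. Within 1 kb of the TSS the members with a peak fell to 1 in WT +Leu, 2 in WT -Leu and 1 in GCN2 KO +Leu, with 1 gene in both WT lists and 1 in both +Leu lists (Herpud1). At any distance there were 5 in WT +Leu, 13 in WT -Leu and 5 in GCN2 KO -Leu. With any GENCODE start in place of the list's gene name, WT -Leu held 8, adding Edem1, Mbtps1 and Syvn1. A score of 30 or more left 0 members within 5 kb in GCN2 KO +Leu and 0 in both +Leu lists, and the 2672 strongest peaks of each list left 1 in both. Member peaks at any distance then numbered 9 for WT -Leu, 0 for GCN2 KO with leucine and 2 for GCN2 KO without it with a score of 30 or more, and 9 (WT -Leu) and 2 (GCN2 KO +Leu) among the strongest 2672. The WT -Leu to +Leu ratio for Herpud1 went from 8.25 to 3.61 with the peak nearest to the TSS and to 1.01 by percentile rank of the strongest peak, and that for Bhlha15 from 1.03 to 0.866 by percentile rank. Shares of peaks with the motif rest on 5 to 19 peaks per list.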

Other observations

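A strong intergenic peak was assigned in all 4 lists to Tbc1d31, with its center 14.4 kb from the start of Derl1, the gene on the other side of it. In WT it scored 295 with leucine and 972 without, and in GCN2 KO 56 with leucine and 85 without, at the 99.6th, 99.5th, 97.5th and 99.4th percentile, and TGATGCAA (chr15:57906853-57906860, minus strand) lay 15 bp or less from each center. Only 1 weak peak of these lists carries the name of Derl1 itself. The peak near Dnajc10, a disulfide reductase of ERAD, was in GCN2 KO -Leu (score 52, 12.7 kb from its nearest annotated start). That near Dnajb11 was in WT -Leu (score 19, 12.1 kb from its nearest annotated start, with TGATGCAA 30 bp from the center). These neighbors were picked after their values were seen, as all peaks named for another gene within 15 kb of any annotated start of a member.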
